A study of Mus musculus with 12 samples.

Results

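Type II alveolar epithelial (AT2) cells of AhRfl/fl mice were cultured with cockroach extract (CRE) or with PBS, and the response of all genes to CRE was measured by RNA-seq. The libraries were chosen by their titles, which gave 3 CRE and 3 PBS libraries of AhRfl/fl cells, 6 of the 12 libraries of the study. AhRfl/fl mice, on the C57BL/6 background and used as young adults, carry a floxed gene for the aryl hydrocarbon receptor (AhR) and no Cre, so the receptor was intact in every library compared here. The remaining 6 libraries came from Sftpc-Cre;AhRfl/fl mice, in which Cre driven from the surfactant protein C locus deletes floxed AhR in cells that use that promoter, and they shared the fit, so they entered the gene filter, the scaling and the estimate of spread, and their own response is given at the end. The cells were freed from lung with dispase, depleted of cells bearing CD16/32, CD45, Ter119 or Sca-1, panned on IgG, plated on collagen I and treated for 24 h with CRE at 50 µg/ml or without it. The labels do not say whether the 3 libraries of a group came from separate mice, so p-values measure the spread between these libraries.

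AT2 cells make pulmonary surfactant and are the progenitors of the flat type I (AT1) cells that line the alveolus. Cockroach extract carries proteases, glycans and microbial products, which epithelial cells sense through protease-activated, Toll-like and C-type lectin receptors. NF-kB is the transcription factor family that induces chemokines, together with its own inhibitors, after such signals. NRF2 is the factor that induces glutathione synthesis and detoxifying enzymes under oxidative or electrophilic stress.

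The total count per library was 73979556, 68878065 and 78769872 in PBS replicates 1, 2 and 3 and 78715838, 75824203 and 75874716 in the CRE replicates. Levels are given in CPM, counts scaled to a common library size with TMM factors, always in the order of replicates 1, 2 and 3. A gene with 0 counts in a library could have had up to 3, which is 0.0373 to 0.0446 CPM and covers counting error only. The marker list of AT2 cells summed to 8694, 9142 and 8155 CPM with PBS, and Sftpc, the AT2-specific surfactant protein C, alone stood at 6016, 6217 and 5476 CPM. Per length of transcript, the club cell secretoglobin Scgb1a1 had the highest FPKM with PBS (10965), above Sftpc (5091). In CPM it stood at 4693, 5306 and 7593 with PBS. The other club cell markers were far lower, with PBS means from 0.20 CPM (Muc5b) to 150 CPM (Cbr2), so the abundance was that of 1 transcript.

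The replicates stood apart from each other more than the treatments did. The first principal component of the 6 libraries took 56.1% of the variance and placed PBS1 and CRE1 at 47.1 and 49.5, against -35.1 to -13.4 for the other 4. The summed markers of leukocytes, led by Laptm5, were 491, 88.4 and 26.4 CPM with PBS and 444, 84.6 and 24.5 CPM with CRE, a steep difference between replicates at nearly the same level within each number. Ms4a1, a marker of B cells, and Cd3e, a marker of T cells, were both highest in replicate 1 of each treatment. The gene that weighed most on the first component was Bpifa1, from the club cell marker list. Its levels were 0.347, 79.1 and 175 CPM with PBS and 0.311, 77.2 and 183 CPM with CRE. Scgb3a1 of the same list was likewise lowest in replicate 1 of each treatment. Because libraries of the same number deviated together, each fit was also run with the replicate number as a term, called "with pairs" below. The CRE response of AhRfl/fl cells was also fitted without replicate 1 of both treatments. Fewer cells of a type and less RNA per cell cannot be told apart in such bulk libraries.

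Under edgeR's quasi-likelihood test, Benjamini-Hochberg adjusted p-values at a threshold of 0.05 called 48 of 20612 genes (0.233%), 45 higher with CRE (0.218%) and 3 lower (0.0146%). Below, "called" refers to this test in edgeR, with or without pairs, unless another tool is named. An unadjusted p below 0.05 was reached by 9.36% of genes. In all 48 the libraries of the 2 treatments were separate in range, as was the case for 8.82% of all genes on the higher side and 7.66% on the lower side. With pairs, 748 genes were called (3.63%), 386 higher (1.87%) and 362 lower (1.76%). They held 47 of the 48. Fitted to the 6 libraries alone without pairs, 38 genes were called, 27 of them among the 48. Leaving out 1 library at a time kept 17 to 33 of the 48. Fitted with pairs to the 6 libraries alone, 157 of 19149 genes were called (0.82%), and 150 of the 748 were among them. Without replicate 1 the calls were 29, and with pairs 265. Of the 748 genes, 440 changed by less than 0.5 on the log2 scale, whereas 31 of the 48 changed by more than 1. The study's rule (limma without adjustment, p under 0.05 with a log2 change beyond 0.5 in size) was met by 848 genes (4.11%), of which 495 were higher (2.4%) and 353 lower (1.71%).

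Neutrophil-attracting chemokines had the highest median of the lists examined. Of the 6 members measured in the list of ELR CXC chemokines, the ligands of the neutrophil receptor Cxcr2, 3 were called higher, and 4 with pairs. The list's median log2 fold change was 2.78, against -0.00118 over all genes tested. Cxcl2 stood at 6.74, 2.62 and 2.42 CPM with PBS and at 54.0, 40.8 and 30.7 CPM with CRE. Every CRE library lay far above every PBS library, and the fold change on the log2 scale was 3.41 (SE 0.44, adjusted p = 0.0109). Cxcl5, a chemokine made mainly by epithelium, rose from 8.46, 4.13 and 7.82 to 48.0, 72.5 and 79.2 CPM, and its log2 fold change reached 3.29 (SE 0.36, adjusted p = 0.00426). Cxcl1 rose from 8.80, 3.92 and 3.11 to 43.3, 32.4 and 36.6 CPM, and its log2 fold change reached 2.83 (SE 0.44, adjusted p = 0.0311). Of the 6 fits that leave out 1 library, Cxcl5 was called in 6, Cxcl2 in 4 (adjusted p up to 0.0645) and Cxcl1 in 1 (up to 0.163). In Cxcl1 and Cxcl2 replicate 1 was the highest of its treatment, and in Cxcl5 it was the lowest of the CRE libraries. Cxcl3, at 14.3, 3.43 and 3.13 CPM with PBS and 80.5, 36.4 and 22.1 CPM with CRE, missed the threshold without pairs (adjusted p = 0.188) and passed it with pairs (log2 fold change 2.90, SE 0.19, adjusted p = 0.00173). The CRE libraries differed widely among themselves, and they were 5.65, 10.6 and 7.06 times their PBS partners. The remaining members, Cxcl15, a lung chemokine at 293 ± 20.9 and 286 ± 34.3 CPM (SD, n = 3), and Ppbp, a platelet chemokine, had log2 fold changes of -0.04 and -0.49 and were not called.

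Ccl20, which attracts dendritic cells and Th17 cells through Ccr6, was the single member called among the 17 other chemokines tested. It rose from 1.23, 0.921 and 2.16 to 6.77, 8.04 and 10.4 CPM (log2 fold change 2.54, SE 0.38, adjusted p = 0.0251). No CRE library came near the PBS range, and it was called in 2 of the 6 fits that leave out 1 library (adjusted p up to 0.115). With pairs 6 of the 17 were called higher and none lower, namely Ccl20, the monocyte attractants Ccl2 and Ccl7, the macrophage chemokine Ccl3, the Ccr4 ligand Ccl22, and the interferon-inducible Cxcl10. Of these Ccl20, Ccl2 and Ccl3 were called with pairs in the 6 libraries alone. Ccl22 shows what the pairing does. It was 26.9, 5.42 and 0.541 CPM with PBS and 69.5, 19.5 and 3.85 CPM with CRE, so the groups overlapped, yet CRE was 2.59, 3.59 and 7.12 times PBS in the 3 pairs. Ccl3 was likewise highest in replicate 1 and lowest in replicate 3 in both treatments, as the leukocyte markers were, and the part of leukocytes in the levels of Ccl3 and Ccl22 was not tested.

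**Figure D1:**
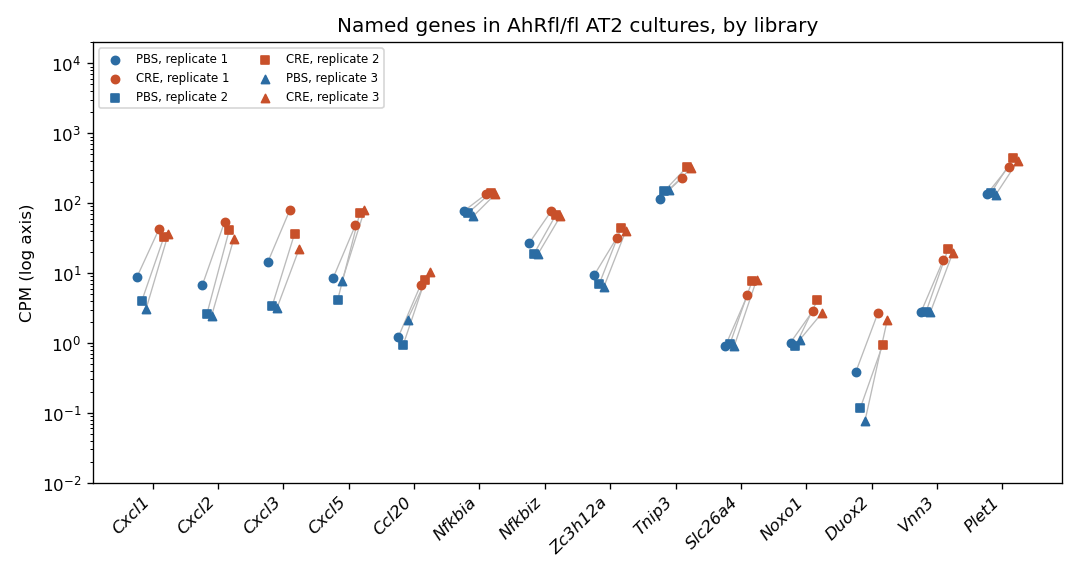
CPM of 14 named genes on a log axis in the 3 PBS libraries (blue) and the 3 CRE libraries (orange) of AhRfl/fl cells, 1 point per library, with a line joining libraries of the same replicate number. For every gene shown the CRE libraries lie above the PBS libraries, and Cxcl3 spreads widest among the CRE libraries, from 22.1 to 80.5 CPM.

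The promoters of these chemokines are shown because 3 of the neighbours on chromosome 5 carry the same NF-kB letters, beginning 71 to 97 bases before the start site. RefSeq promoter windows of GRCm38.p6, from 250 bases before to 50 bases after the start, were searched on both strands for GGG, 2 bases of any kind and then TTTCC, a form of the kB site. It was present in 1.63% of 32851 windows. Of the 45 genes called higher, 30 had a window and 7 of these held it: Ccl20, Cxcl1, Cxcl2, Gtse1, Nfkbia, Pglyrp1 and Prnd. Among the ELR CXC chemokines it was found in 3 of 5 genes with a window. In the stretches below, printed 5′ to 3′ along the gene, capitals mark the match or its reverse complement.
Cxcl1, chr5:90891141-90891198, plus strand: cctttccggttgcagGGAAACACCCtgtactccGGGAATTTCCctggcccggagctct
Cxcl2, chr5:90903787-90903845, plus strand: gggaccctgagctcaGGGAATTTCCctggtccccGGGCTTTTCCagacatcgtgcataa
Cxcl3, chr5:90786013-90786052, plus strand: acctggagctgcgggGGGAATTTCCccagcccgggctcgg
Ccl20, chr1:83116671-83116710, plus strand: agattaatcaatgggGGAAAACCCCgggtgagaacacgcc
Nfkbia, chr12:55492652-55492691, minus strand: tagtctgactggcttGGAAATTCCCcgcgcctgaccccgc
The match GGGAATTTCC began 71 bases before the start in Cxcl1, 97 in Cxcl2 and 73 in Cxcl3, and Cxcl1 and Cxcl2 each held 2 matches. Letters in a window are a description of sequence, and binding was not measured.

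Several regulators that NF-kB induces were called higher. Of 19 NF-kB subunits and feedback inhibitors tested, 4 were called higher, 8 with pairs, and none lower in either fit. The median log2 fold change was 0.36 and 18 of the 19 were positive. Nfkbia, encoding the inhibitor that holds NF-kB in the cytoplasm, rose from 77.0, 73.0 and 64.5 to 134, 140 and 134 CPM (log2 fold change 0.93, SE 0.08, adjusted p = 0.00108). Nfkbiz, a nuclear coactivator of secondary NF-kB targets, rose from 26.8, 18.6 and 19.0 to 77.4, 68.2 and 65.4 CPM (log2 fold change 1.71, SE 0.19, adjusted p = 0.00426). Zc3h12a encodes Regnase-1, an RNase that degrades cytokine mRNAs. It went from 9.50, 6.88 and 6.22 to 31.7, 44.2 and 40.3 CPM, the largest change of the list (log2 fold change 2.36, SE 0.25, adjusted p = 0.00382). In each the lowest CRE library lay above the highest PBS library, and all 3 genes stayed called without any one of the 6 libraries. Tnip3, which binds the deubiquitinase A20, rose by 1.05 on the log2 scale (SE 0.16, adjusted p = 0.0245) and was called in 1 of the 6 fits that leave out 1 library (adjusted p up to 0.122). With pairs Nfkb1, Nfkb2, Rel and Birc3 were added, at log2 fold changes of 0.32 to 0.69, and none of these 4 was called with pairs in the 6 libraries alone. Tnfaip3, the gene of A20, was not called. It was scattered in both groups, at 50.6, 17.8 and 53.0 CPM with PBS and 43.5, 110 and 43.0 CPM with CRE.

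Cytokines were called with pairs only. Il33, the alarmin that AT2 cells store in the nucleus and that activates group 2 innate lymphoid cells, was at 13.3, 21.5 and 20.5 CPM with PBS and 31.3, 54.8 and 50.9 CPM with CRE. Replicate 1 was low in both treatments and the groups did not overlap. Without pairs its change on the log2 scale was 1.31 (SE 0.30, adjusted p = 0.165), and with pairs 1.30 (SE 0.06, adjusted p = 0.000645). The ratio to the PBS partner was 2.35, 2.55 and 2.49. Of the 15 members of the IL-1 family tested, 4 were called higher with pairs and none lower, Il33, Il1a, Il1b and Il1f9, the last encoding the epithelial cytokine IL-36 gamma. The count was 4 with pairs without replicate 1 and 2 with pairs in the 6 libraries alone (Il33 and Il1f9). Among 18 other cytokines and colony-stimulating factors, Csf3, Il6 and Tnf were called higher with pairs at log2 fold changes of 1.17 (SE 0.21), 1.47 (SE 0.29) and 1.43 (SE 0.18). Their adjusted p-values with pairs were 0.0335, 0.0468 and 0.0116. In this list 1 member was called with pairs without replicate 1, and none with pairs in the 6 libraries alone. Csf2, the growth factor GM-CSF, had a log2 fold change of 1.34 and was not called (adjusted p = 0.310, with pairs 0.146). Tslp, an alarmin of type 2 inflammation, was near the limit of counting, with 8, 0 and 4 counts with PBS and 12, 2 and 12 with CRE.

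Of 20 sensors of allergen and microbes, 4 were called higher with pairs and none lower: Cd14, Tlr4 and Tlr2, which recognise lipopolysaccharide and lipoproteins, and Nod2, which recognises peptidoglycan fragments. Cd14 rose from 33.4, 51.2 and 53.4 to 78.7, 112 and 121 CPM, without overlap (with pairs log2 fold change 1.18, SE 0.11, adjusted p = 0.00376, without pairs adjusted p = 0.0645). The median of this list was 0.12, and Cd14 was the 1 member called with pairs in the 6 libraries alone.

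Secreted antimicrobial proteins were higher in part. Of 21 tested, 2 were called higher, and with pairs 6 higher and 2 lower. Slpi, a protease inhibitor with antibacterial activity, went from 214, 189 and 159 to 548, 671 and 524 CPM (log2 fold change 1.63, SE 0.20, adjusted p = 0.00901). Pglyrp1, which binds peptidoglycan, went from 3.80, 3.83 and 3.38 to 7.78, 9.99 and 11.5 CPM (log2 fold change 1.41, SE 0.24, adjusted p = 0.0455). Neither gene's groups overlapped. Of the fits that leave out 1 library, Slpi was called in 4 (adjusted p up to 0.0603) and Pglyrp1 in 1 (up to 0.226), and the complement gene C3 in 5 (up to 0.0515). Lcn2, the siderophore-binding lipocalin, rose with pairs from 37.3, 40.3 and 29.5 to 92.5, 113 and 99.4 CPM (log2 fold change 1.52, SE 0.16, adjusted p = 0.00651), and Saa3, a serum amyloid A, from a low 0.614, 0.208 and 0.206 to 6.97, 2.87 and 1.65 CPM (log2 fold change 3.43, SE 0.47, adjusted p = 0.0161). The adjusted p of Saa3 was 0.0791 with pairs without replicate 1, and Slpi, Lcn2, Saa3 and Cp, which encodes ceruloplasmin, were called with pairs in the 6 libraries alone, while Pglyrp1 was not (adjusted p = 0.0597). The lysozymes Lyz1 and Lyz2 were lower with pairs, at -0.19 and -0.15. C3, the central complement protein, rose from 237, 196 and 185 to 400, 452 and 414 CPM (log2 fold change 1.04, SE 0.12, adjusted p = 0.00666) and was the 1 member called of 21 complement genes. With pairs Cfb, the alternative pathway's factor B, was also higher (1.03, SE 0.19) and Clu, the complement inhibitor clusterin, lower (-0.42, SE 0.05), and neither was called with pairs in the 6 libraries alone.

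Of 11 genes for dual and NADPH oxidases 1 was called higher, 3 with pairs, and none lower. Noxo1, the organizer subunit of NADPH oxidase 1, rose from 1.01, 0.892 and 1.11 to 2.85, 4.09 and 2.67 CPM (log2 fold change 1.67, SE 0.27, adjusted p = 0.0385). It was called in none of the 6 fits that leave out 1 library, with an adjusted p of up to 0.191. Duox2, the hydrogen peroxide source of airway epithelium, was listed at 0.387, 0.119 and 0.0773 CPM with PBS and 2.73, 0.938 and 2.12 CPM with CRE. It was called with pairs (log2 fold change 3.43, SE 0.44, adjusted p = 0.0129) and not without them (adjusted p = 0.119), while its partner Duox1 had a log2 fold change of -0.46. Cybb, the phagocyte oxidase subunit, was the other member called with pairs, and it was highest in replicate 1 as the leukocyte markers were (50.2, 6.18 and 2.49 CPM with PBS, 91.9, 17.2 and 5.33 CPM with CRE). No member of the list was called with pairs in the 6 libraries alone, Noxo1 and Duox2 included.

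Slc26a4, the anion exchanger pendrin, rose from 0.894, 0.951 and 0.915 to 4.78, 7.61 and 7.99 CPM (log2 fold change 2.88, SE 0.36, adjusted p = 0.00902). It was the 1 member called of 16 ion transport genes, of which 3 were higher and 4 lower with pairs. With pairs the bicarbonate cotransporter Slc4a4 was higher as well (0.81, SE 0.14), and all 3 subunits of the epithelial sodium channel were lower, Scnn1a by -0.23 (SE 0.04), Scnn1b by -0.55 (SE 0.07) and Scnn1g by -0.38 (SE 0.06), as was the chloride channel Ano1 (-0.40, SE 0.05). Slc26a4 was the 1 member called with pairs in the 6 libraries alone, so the calls of the sodium channel subunits, Ano1 and Slc4a4 were lost there. The 2 pantetheinases, neighbours on chromosome 10 that release cysteamine and vitamin B5, were both called. Vnn3 was nearly equal in the PBS libraries, at 2.81, 2.73 and 2.76 CPM, against 15.6, 21.9 and 19.2 CPM with CRE (log2 fold change 2.77, SE 0.21, adjusted p = 0.000941). Vnn1 rose from 159, 183 and 164 to 302, 396 and 363 CPM (log2 fold change 1.07, SE 0.15, adjusted p = 0.0207). Without 1 library at a time Vnn3 was called in 6 fits, Slc26a4 in 3 (adjusted p up to 0.0708) and Vnn1 in 1 (up to 0.117). Of 13 mucin and goblet cell genes the membrane mucins Muc1 (1.04, SE 0.08) and Muc20 (0.75, SE 0.11) were higher with pairs, and Muc1 alone with pairs in the 6 libraries alone.

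NRF2 targets were higher with CRE. All 23 targets tested had a positive log2 fold change, with a median of 0.46, and 15 of them had CRE libraries above all PBS libraries. Of the 23, 7 were called, 16 with pairs, none of them lower. Without replicate 1 the calls were 2, and 9 with pairs, and 9 were called with pairs in the 6 libraries alone. Gclc, the catalytic subunit of the enzyme that limits glutathione synthesis, rose from 707, 776 and 735 to 1531, 1948 and 1745 CPM (log2 fold change 1.24, SE 0.13, adjusted p = 0.00382). Gclm, its modifier subunit, rose from 114, 145 and 105 to 214, 212 and 205 CPM (log2 fold change 0.80, SE 0.13, adjusted p = 0.0353). Slc7a11, which imports cystine for the same synthesis, rose from 186, 140 and 130 to 455, 458 and 358 CPM (log2 fold change 1.48, SE 0.23, adjusted p = 0.0299). The 3 genes did not overlap between treatments, and Gclc stayed called without any one library. Of the 6 such fits Gclm was called in 1 (adjusted p up to 0.163), Gsta3 in 2 (up to 0.0869), Gsta4 in 6, and Slc7a11, Gsr and Gsta2 in 0 (up to 0.157). Gsr, which regenerates reduced glutathione, had the smallest called change (0.41, SE 0.06, adjusted p = 0.0187). The glutathione transferases Gsta2, Gsta3 and Gsta4 were called at 0.96 (SE 0.15), 0.94 (SE 0.13) and 0.81 (SE 0.08), and Gsta1 with pairs at 1.02 (SE 0.13). Gsta1 and Gsta2 are close copies whose reads the counting could split. With pairs the quinone reductase Nqo1 (0.66, SE 0.06) and the heme oxygenase Hmox1 (0.50, SE 0.04) were higher. Txnrd1, Srxn1, Ftl1, Fth1, G6pdx, Gpx2 and Osgin1 were not called in either fit.

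The core letters of the antioxidant response element, TGACNNNGC, were searched in the same windows because the called genes include the pair Gclc and Gclm. They were present in 12.4% of all windows, in 6 of the 30 genes called higher with a window and in 8 of the 18 NRF2 targets with a window. Matches in 4 genes are shown, 2 of them called and the others Txnrd1 and Prdx1, with capitals for the match on either strand. That of Prdx1 overlaps an AP-1 motif, TGANTCA, which 7.81% of windows held.
Gclm, chr3:122245408-122245446, plus strand: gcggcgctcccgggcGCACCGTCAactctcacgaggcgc
Gsta3, chr1:21240449-21240487, plus strand: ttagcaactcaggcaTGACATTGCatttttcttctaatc
Txnrd1, chr10:82859099-82859137, plus strand: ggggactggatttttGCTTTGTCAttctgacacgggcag
Prdx1, chr4:116685451-116685489, plus strand: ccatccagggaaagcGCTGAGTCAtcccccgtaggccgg
Prdx1, a peroxiredoxin, was higher with pairs, and Txnrd1 was not called, so the letters occurred in genes of both kinds.

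Ahr itself was 42.9, 43.8 and 45.1 CPM with PBS and 56.2, 50.5 and 50.1 CPM with CRE. The groups did not overlap, but the change missed the threshold (log2 fold change 0.25, SE 0.12, adjusted p = 0.555, with pairs 0.114). All 10 AhR targets tested had a positive log2 fold change, with a median of 0.65, and 5 had CRE libraries above all PBS libraries. None was called and 4 were higher with pairs, Tiparp (0.31), Nqo1 (0.66), Aldh3a1 (0.80) and Ptgs2 (0.62), and Nqo1, which is also on the NRF2 list, was the 1 called with pairs in the 6 libraries alone. The 3 genes most used as AhR readouts were not among them. Cyp1a1 was 31.4, 21.1 and 19.8 CPM with PBS and 34.5, 21.3 and 22.6 CPM with CRE (log2 fold change 0.12, SE 0.37), Cyp1b1 had 0.15 (SE 0.25), and Ahrr, the AhR repressor, 0.64 (SE 0.44, with pairs adjusted p = 0.0869).

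**Figure D2:**
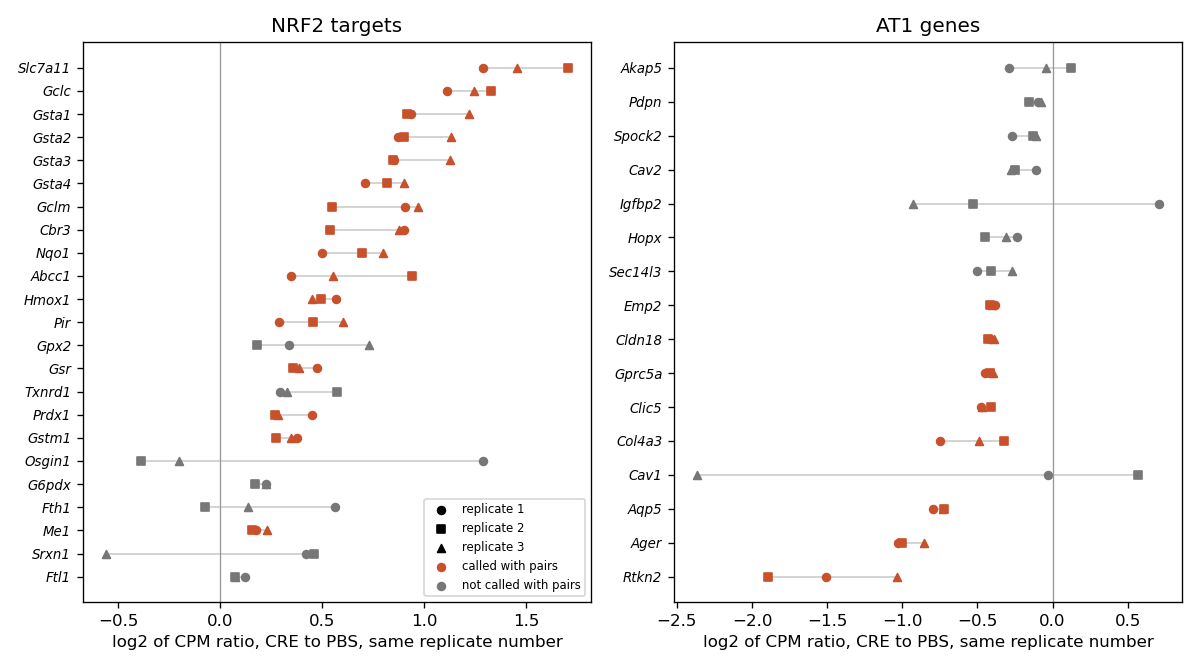
Log2 of the ratio of CPM, CRE to PBS, within each replicate number for every tested member of the NRF2 list (left) and the AT1 list (right), with orange for genes called with pairs and grey for the rest. The 3 pairs of Gclc, Slc7a11 and the Gsta genes lie to the right of 0 and those of Ager, Aqp5 and Rtkn2 to the left, while Osgin1, Srxn1, Cav1 and Igfbp2 scatter across it.

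Genes of the AT1 fate were lower. None of the 16 on the list had a positive log2 fold change, and the median was -0.41. None was called without pairs, and with pairs 8 were called, all lower, against 6 with pairs without replicate 1 and 6 with pairs in the 6 libraries alone, where Rtkn2 and Col4a3 were not called. Ager, the receptor RAGE that is abundant on AT1 cells, was 484, 644 and 633 CPM with PBS and 237, 321 and 350 CPM with CRE. The groups did not overlap. With pairs the change on the log2 scale was -0.96 (SE 0.04, adjusted p = 0.000645). Without them it missed the threshold in edgeR (SE 0.24, adjusted p = 0.194) but not in DESeq2. CRE libraries held 0.490, 0.499 and 0.552 of the level of their partners. Aqp5, the water channel of AT1 cells, went from 163, 229 and 205 to 94.1, 139 and 124 CPM (with pairs -0.75, SE 0.06, adjusted p = 0.00232). Rtkn2, Clic5, Emp2, Gprc5a, Cldn18 and the basement membrane collagen Col4a3 were the others called with pairs, at log2 fold changes of -1.47 to -0.40. Hopx and Pdpn, also used as AT1 markers, had -0.33 and -0.10 and were not called. The summed AT1 markers were 1675, 1996 and 2111 CPM with PBS and 1124, 1355 and 1407 CPM with CRE, ratios of 0.671, 0.679 and 0.666 in the 3 pairs. By an exact two-sided permutation test the difference had p = 0.1, the smallest that 3 against 3 allow. Most other summed markers of lung cells were lower in every pair too, with ratios nearer to 1, and that of basal cells was higher in every pair (1.05, 1.47 and 1.04). The ratios of the lower sums were 0.897, 0.854 and 0.857 for AT2 cells (the same exact permutation p = 0.1), 0.864, 0.770 and 0.824 for club cells, 0.798, 0.791 and 0.904 for mesothelium and 0.876, 0.857 and 0.807 for endothelium. For fibroblasts and smooth muscle they were 0.896, 0.892 and 0.907, and for ciliated cells 0.902, 0.954 and 0.965. Without their most abundant gene these lower sums were still lower in every pair, except that of club cells, which without Scgb1a1 was 302, 477 and 583 CPM with PBS and 344, 497 and 639 CPM with CRE and so higher in every pair. The basal sum turned as well. Without Krt6a, its most abundant gene, it was 8.31, 7.15 and 9.24 CPM with PBS and 7.83, 7.09 and 6.94 CPM with CRE, lower in every pair. By the median log2 fold change of these marker lists, mesothelium (-0.40) was as low as AT1 (-0.39), and endothelium was at -0.30. Those of AT2 cells, fibroblasts and smooth muscle, ciliated and club cells were -0.15, -0.16, -0.10 and -0.04. The part of cell composition in the AT1 difference was not tested.

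Surfactant and AT2 genes were more mixed. Of 19 tested none was called, and with pairs 3 were higher and 4 lower. Sftpc was 6016, 6217 and 5476 CPM with PBS and 5155, 5207 and 4699 CPM with CRE, a small difference that passed only with pairs (log2 fold change -0.23, SE 0.02, adjusted p = 0.00376, without pairs 0.886). Etv5, a transcription factor of AT2 identity, and Lpcat1, which makes surfactant phosphatidylcholine, were lower with pairs (-0.46, SE 0.07, and -0.51, SE 0.08). Lamp3, a lamellar body protein, was higher (0.26, SE 0.05), as were Il33 and Muc1, which the list holds as AT2 genes. Sftpb and Sftpa1 were not called, at -0.15 and -0.14. The calls with pairs in the 6 libraries alone were Sftpc, Lpcat1, Il33 and Muc1. Of 18 genes of the transitional state between AT2 and AT1 cells, marked by high Krt8, 3 were higher with pairs (Fosl1, Ndrg1 and Plaur) and 7 lower (Krt8, Krt18, Krt19, Krt7, Lgals3, Sprr1a and Areg). Krt8 was 3101, 4271 and 3948 CPM with PBS and 2652, 3555 and 3472 CPM with CRE (with pairs -0.23, SE 0.02), and Lgals3, galectin-3, had the larger change of -0.56 (SE 0.05). The calls with pairs in the 6 libraries alone were Krt18, Krt7, Lgals3 and Sprr1a, all lower.

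**Figure D3:**
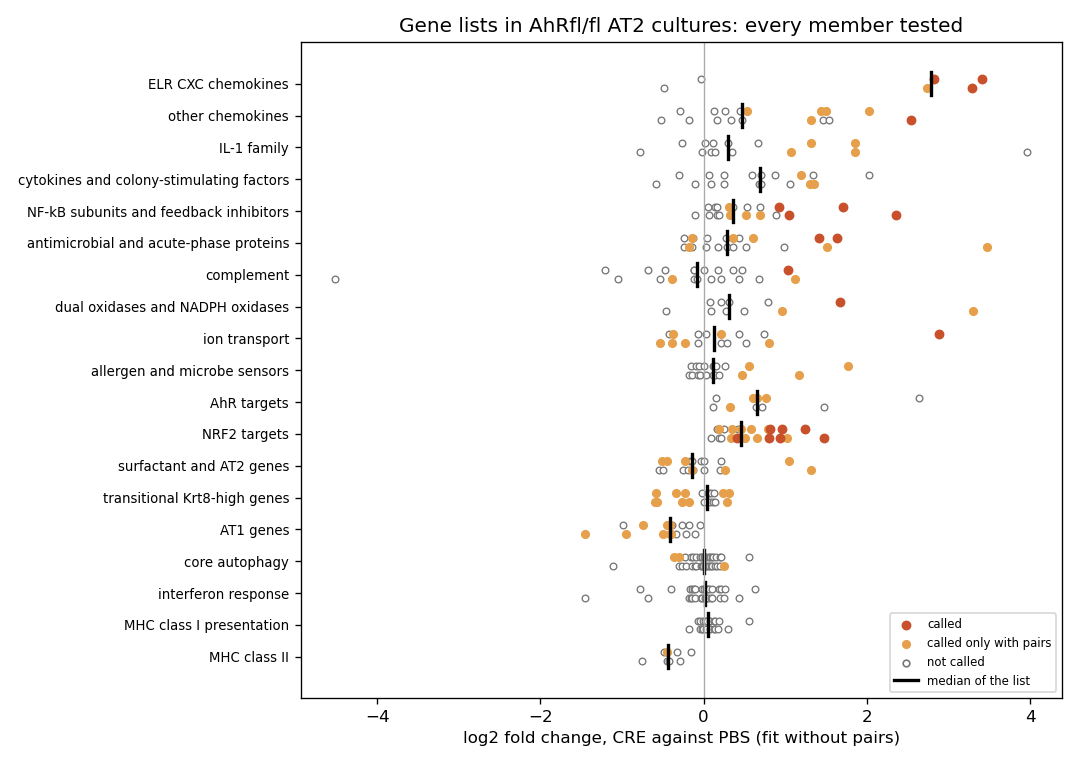
Log2 fold change, CRE against PBS, of every tested member of 19 gene lists from the fit without pairs, with the list median as a black bar; dark orange marks members called in that fit, light orange those called only with pairs, and open circles the rest. The ELR CXC chemokines have the highest median (2.78), the NRF2 targets and the AhR targets lie wholly right of 0, and the AT1 genes and the MHC class II genes wholly left of it.

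Of the 48 called genes 23 were on a list of gene roles and 25 on no such list, and Plet1 and Car4 were also on the marker list of alveolar macrophages. Plet1, a surface protein of progenitor epithelium that alveolar macrophages also make, rose from 133, 142 and 132 to 332, 445 and 402 CPM (log2 fold change 1.53, SE 0.12, adjusted p = 0.000941). Ehf, an epithelial ETS transcription factor, rose from 64.0, 77.0 and 77.2 to 137, 199 and 184 CPM (log2 fold change 1.25, SE 0.15, adjusted p = 0.00666). Cd36, a fatty acid transporter and scavenger receptor, rose from 139, 134 and 112 to 328, 323 and 293 CPM (log2 fold change 1.30, SE 0.18, adjusted p = 0.0207). In all 3 the lowest CRE library lay above the highest PBS library, and Plet1 and Ehf stayed called without any one library, whereas Cd36 was called in none of these 6 fits (adjusted p up to 0.117). The same held for Hcar2, Snhg11 and Mt2 of the genes that follow (up to 0.163, 0.190 and 0.226), while Slc39a4, Slc11a2 and U90926 were called in all 6, Tnfrsf11b in 2 and Akr1b8, Adh7, Idh1, Abcc3, 1500015A07Rik and G930009F23Rik in 1. Ehf, Cd36 and those of the genes that follow with changes below the 20 largest were chosen after their values were seen. Slc39a4, a zinc importer, rose by 1.25 (SE 0.14), Slc11a2, an iron and manganese importer, by 0.76 (SE 0.09), and Mt2, a metal-binding metallothionein, by 0.57 (SE 0.10). Hcar2, a receptor for butyrate and niacin, rose by 1.65 (SE 0.27), and Tnfrsf11b, the decoy receptor osteoprotegerin, by 1.12 (SE 0.15). The enzymes Akr1b8, Adh7 and Idh1 and the exporter Abcc3 rose by 0.96 (SE 0.14), 0.82 (SE 0.13), 0.53 (SE 0.07) and 0.82 (SE 0.12). U90926, at 1.17, 1.13 and 0.876 CPM with PBS and 6.37, 6.82 and 4.67 CPM with CRE (log2 fold change 2.49, SE 0.28), 1500015A07Rik (1.43, SE 0.19) and G930009F23Rik (1.35, SE 0.21) are transcripts without an established role here. Snhg11, a small nucleolar RNA host gene, rose by 1.24 (SE 0.20). The adjusted p-values of all these genes were below 0.05 in edgeR, the largest 0.0455 for Mt2.

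Without pairs 3 genes were called lower. Ndnf, a secreted protein first described in neurons and endothelium, fell from 478, 655 and 706 to 189, 274 and 258 CPM (log2 fold change -1.35, SE 0.19, adjusted p = 0.0207). The highest CRE library was far below the lowest PBS library. Zbtb22, a zinc finger gene, went from 40.9, 40.9 and 38.3 to 10.1, 6.70 and 12.1 CPM (log2 fold change -2.05, SE 0.18, adjusted p = 0.00164). It lies on the same strand of chromosome 17 wholly inside the span of Tapbp, from 33915904 to 33919325 of GRCm38, so reads of the 2 genes can be hard to assign, and its value is uncertain for that reason. Tapbp itself, the tapasin of antigen presentation, was 142, 280 and 230 CPM with PBS and 238, 291 and 273 CPM with CRE and was not called. Car4, a membrane carbonic anhydrase, was counted 12, 13 and 16 times with PBS and never in a CRE library, at least 4.75-fold lower when the CRE group is set at the floor of 3 counts per library. With pairs its adjusted p was 0.0569. Of the 6 fits that leave out 1 library Zbtb22 was called in all, Ndnf in 1 (adjusted p up to 0.106) and Car4 in 0 (up to 0.117).

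Beside Ager, Il33, Cxcl3, Gprc5a, Cldn18 and Emp2, the 10 genes with the smallest adjusted p with pairs that the fit without pairs did not call included Actr3, Enpep, Akr1b3 and Col4a4. Actr3, a subunit of the actin-nucleating Arp2/3 complex, had nearly identical replicates, 311, 307 and 311 CPM with PBS and 481, 471 and 472 CPM with CRE (with pairs log2 fold change 0.61, SE 0.04, adjusted p = 0.00126). Akr1b3, aldose reductase, was likewise tight at 497, 522 and 484 CPM against 769, 773 and 781 CPM (with pairs 0.63, SE 0.04). Enpep, an aminopeptidase that cleaves angiotensin, and Col4a4, a partner of Col4a3 in basement membrane, were lower with pairs (-0.62, SE 0.04, and -0.76, SE 0.05). In the edgeR fit of all 12 libraries without pairs Actr3 and Akr1b3 were not called (adjusted p = 0.185 and 0.123), but both were called without pairs in the 6 libraries alone and with DESeq2.

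Core autophagy genes had no common direction. Of 40 tested none was called, the median was 0.01, and with pairs 1 was higher and 2 lower. Sqstm1, the cargo receptor p62, was 2266, 2542 and 2183 CPM with PBS and 2680, 2871 and 2726 CPM with CRE (with pairs log2 fold change 0.25, SE 0.04, adjusted p = 0.0284). Atg3 and Gabarap, which serve the lipidation step, were lower with pairs (-0.36, SE 0.06, and -0.30, SE 0.04). Map1lc3a had -0.23 (SE 0.12), Map1lc3b -0.09 (SE 0.12), Atg5 -0.02 (SE 0.09) and Becn1 -0.02 (SE 0.07), none of them called with or without pairs. No member of the list was called with pairs in the 6 libraries alone. Tgfb1, the gene of the cytokine TGF-beta 1, had -0.08 (SE 0.20) and was not called.

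No interferon response gene of 32 and no MHC class I presentation gene of 20 was called in either fit, with medians of 0.01 and 0.06. The 8 MHC class II genes had a median of -0.44 and none was positive, and H2-Aa was called lower with pairs (-0.42, SE 0.07) but not with pairs in the 6 libraries alone. Its level followed the replicates, 152, 86.6 and 59.8 CPM with PBS and 108, 60.1 and 50.1 CPM with CRE. The part of the leukocytes in this list was not tested.

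Markers of other cells were compared by library. The leukocyte list had 15 members, none at 0 throughout, and its sum was 0.905, 0.956 and 0.929 of that of the PBS partner. Its defining gene Ptprc, encoding CD45, was 66.5, 9.08 and 3.41 CPM with PBS and 67.5, 12.1 and 2.19 CPM with CRE. With pairs 1 of the 15 leukocyte markers was called, Laptm5, lower (-0.45, SE 0.09, adjusted p = 0.0410), and on the alveolar macrophage list Ear2 (-1.84, SE 0.28, adjusted p = 0.0221) and Itgax (-0.58, SE 0.11, adjusted p = 0.0439) were lower and Plet1 higher. With pairs in the 6 libraries alone Laptm5, Ear2 and Itgax were not called (adjusted p = 0.143, 0.0875 and 0.137), while Plet1 was. A few genes that macrophages express are given here as values, without a test result, since they were picked because they were higher with CRE. Fpr1, a formyl peptide receptor, was 1.71, 0.282 and 0.155 CPM with PBS and 13.9, 2.86 and 0.846 CPM with CRE, and Acod1, which makes itaconate, was 2.80, 0.386 and 0.258 CPM against 17.7, 5.51 and 0.792 CPM. Il1b, which is among the IL-1 family genes called with pairs, Clec4e and Adgre1 had the same order of replicates. Across replicate numbers these levels were ordered as the leukocyte markers were, and the part of leukocytes in them was not tested. The summed neutrophil markers, 111, 116 and 52.4 CPM with PBS and 155, 195 and 144 CPM with CRE (exact two-sided permutation p = 0.1), were led by Lcn2, which epithelium also makes. Without Lcn2 the sums were 73.6, 75.8 and 22.9 against 62.3, 81.4 and 44.4 CPM. Lcn2 and Mmp8 were the members called with pairs of the 13. Mmp8, a neutrophil collagenase, was 20.3, 5.32 and 2.01 CPM with PBS and 25.2, 9.24 and 3.46 CPM with CRE (with pairs log2 fold change 0.62, SE 0.13, adjusted p = 0.0497), and it was not called with pairs in the 6 libraries alone (adjusted p = 0.142). S100a8 was at most 13.4 CPM, S100a9 16.3, Ngp 16.9 and Ltf 22.5 CPM, and Ly6g, a defining marker, had 0, 20 and 0 counts with PBS and 20, 24 and 10 with CRE. The part of neutrophils in the level of Lcn2 was not tested. The alveolar macrophage sum, 364, 233 and 206 against 528, 530 and 476 CPM (exact two-sided permutation p = 0.1) had Plet1 as its most abundant gene, at 133, 142 and 132 against 332, 445 and 402 CPM. Without it the sums were 231, 90.5 and 73.2 against 196, 85.0 and 73.7 CPM. Siglecf, the sialic acid receptor that marks those macrophages, had 251, 19 and 21 counts with PBS and 0, 0 and 4 with CRE and was not called (adjusted p = 0.190, with pairs 0.0887).

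**Figure D4:**
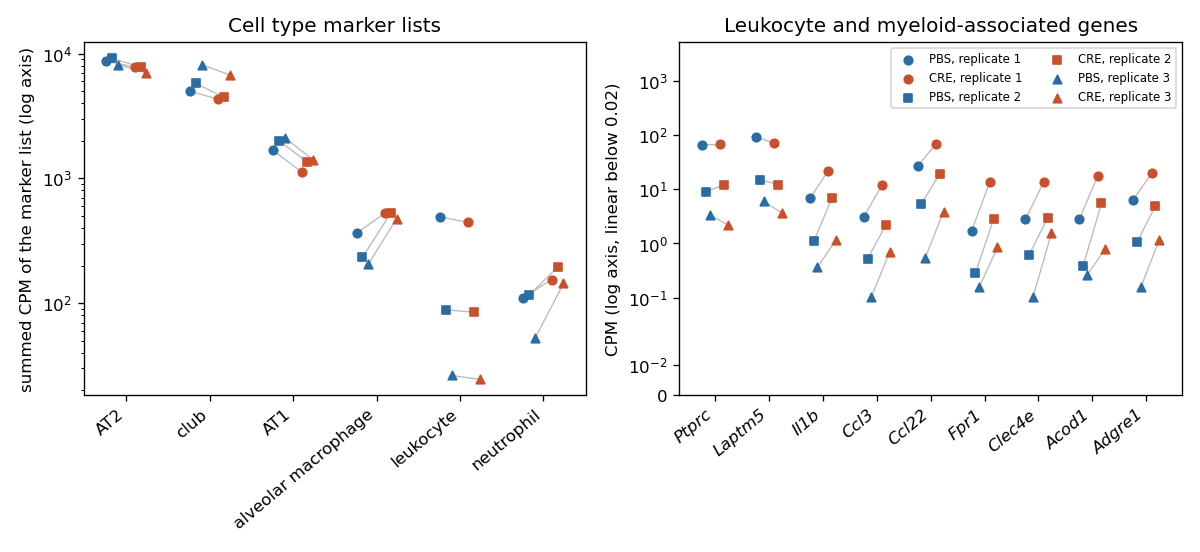
Summed CPM of 6 cell type marker lists (left) and CPM of 9 leukocyte and myeloid-associated genes (right) in the 3 PBS libraries (blue) and 3 CRE libraries (orange) of AhRfl/fl cells, on log axes that on the right turn linear below 0.02, with lines joining the same replicate number. The leukocyte sum lies between 491 and 26.4 CPM in the PBS replicates with a nearly level line within each pair, the AT1 sum slopes down in all 3 pairs, and Fpr1 and Acod1 slope up in all 3.

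The response was set beside that of Sftpc-Cre;AhRfl/fl cells, whose libraries shared the filter, scaling and spread behind the calls. There edgeR called 54 genes (0.262%), and 439 with pairs (2.13%). Of the 48 genes called in AhRfl/fl cells, 39 were called in the other genotype as well, 47 changed in the same direction, and the fold was larger in 23 and smaller in 25. Cxcl2 had 3.41 (SE 0.44) and 3.51 (SE 0.44) in the 2 genotypes, Nfkbia 0.93 (SE 0.08) and 0.99 (SE 0.08), and Plet1 1.53 (SE 0.12) and 1.39 (SE 0.12). The difference between the genotypes, tested as an interaction, was called for 0 genes by edgeR (Benjamini-Hochberg, 0%), and 763 genes (3.70%) had an unadjusted p below 0.05. DESeq2 called 23. Of the 48 genes, 3, Entpd5, Zbtb22 and Car4, had an unadjusted interaction p below 0.05. The smallest adjusted p of any gene, 0.135, was that of Zbtb22, whose log2 fold change was 0.00 (SE 0.18) in Sftpc-Cre;AhRfl/fl cells.

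**Figure D5:**
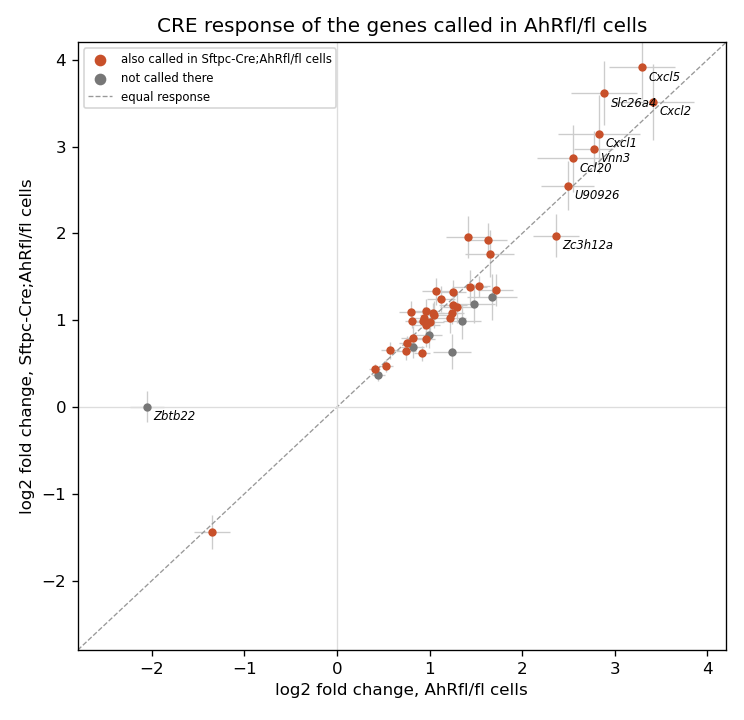
Log2 fold change, CRE against PBS, of the genes called in AhRfl/fl cells (Car4 left out because its CRE libraries are at 0), with AhRfl/fl cells on the x axis and Sftpc-Cre;AhRfl/fl cells on the y axis, bars for the SE, orange for genes also called in the second genotype and a dashed line for equal responses. At the upper end Cxcl2 lies near the line, and Cxcl5 (3.29 and 3.91) and Slc26a4 (2.88 and 3.61) lie above it. Zbtb22 is farthest from the line, at -2.05 and 0.00.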

How the data were processed

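The authors made stranded mRNA libraries, aligned reads with STAR 2.7.2b to GRCm38 and quantified with Salmon, per the labels. Deposited gene counts are whole numbers, not normalized, and the deposited FPKM was made by the authors from it. How whole numbers were reached is not given in the sources used here. The study names RefSeq as its annotation, but all 55450 gene IDs were found in GENCODE M21, so which annotation made the counts is not known. The combined table was not used. No column of the authors' comparisons was deposited among the files used. The gene members, lists and tests were chosen with earlier results of these data known.

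Counts of all 12 libraries were fitted as 4 group means in edgeR 4.0.16 under R 4.3.3, with TMM and filterByExpr at a minimum count of 10, and tested by edgeR's quasi-likelihood F test, with p-values adjusted by Benjamini-Hochberg (threshold 0.05). The SE was the absolute log2 fold change divided by the square root of the F statistic. The study's rule used limma-trend from limma 3.58.1, run on log2 CPM (prior count 2). Genes named are the 20 called genes that changed most on the log2 scale, every called gene that fell, the 10 with the smallest adjusted p with pairs among those not called, genes the study names, and list members called with or without pairs or defining a list. Further called genes on no list, and the macrophage genes, were chosen after their values were seen. Lists are described by counts and medians, with no set test. Deviations from the group mean correlated at 0.747, 0.419 and 0.643 between PBS and CRE libraries of the same number over 14536 genes, and at -0.615 to 0.147 between different numbers, so the numbers were taken to pair the libraries. The pairing comes from the replicate numbers in the titles and this check, and the labels do not say what a number marks. Alternatives were DESeq2 1.42.0, limma adjusted by Benjamini-Hochberg, RLE, library size alone, no filter, 1 CPM in 3 libraries, only the 6 libraries, the replicate block, leaving out each library and, chosen after seeing the data, leaving out replicate 1 of both treatments.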

Additional observations from a re-analysis of the deposited data

Results flagged for a closer look

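In 8 of the genes named, CRE moved all 3 pairs of AhRfl/fl libraries one way and all 3 pairs of Sftpc-Cre;AhRfl/fl libraries the other way. The interaction test called none of them in edgeR at an adjusted p of 0.05, and the differences are therefore given as values. The share of all genes with this pattern was not computed, so the count of 8 is not a result about the genes named. The interaction, as the log2 fold change in Sftpc-Cre;AhRfl/fl cells minus that in AhRfl/fl cells, was 0.28 for Sftpc, 0.25 for Sftpa1 and 0.17 for Lyz2, all secreted products of AT2 cells, which were lower with CRE in AhRfl/fl cells. Sftpc went from 3086, 4591 and 6183 CPM with PBS to 3216, 4631 and 6492 CPM with CRE in Sftpc-Cre;AhRfl/fl cells, so that replicates differed more than treatments did. The junction genes Cldn3 and Cldn7 had interactions of 0.33 and 0.26, and Tgfb1 had 0.25. Ahrr had -0.90, being higher with CRE in AhRfl/fl cells and lower in the other genotype. Tslp had -3.17, which rests on 0 to 12 counts per library in AhRfl/fl cells. Groups of 3 libraries are too small for a test of single outlying libraries.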

How the results depend on the processing

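The 48 genes called in AhRfl/fl cells had the same direction in every alternative that tested them. All 48 were separate in range between treatments, so leaving out libraries could hardly reverse a direction, and this is no independent check. Of the 48, 14 were called in each alternative chosen at the outset, namely Cxcl5, Entpd5, Gclc, Gsta4, Mid2, Nfkbia, Nfkbiz, Plet1, Slc11a2, Slc39a4, U90926, Vnn3, Zbtb22 and Zc3h12a. The count of 48 became 414 with DESeq2, 748 with the replicate block and 157 with the replicate block in the 6 libraries alone, which held 47, 47 and 42 of the 48. Leaving out 1 library gave 19 to 47 calls, the lowest without PBS replicate 3. Leaving out replicate 1 of both treatments, chosen after seeing the data, gave 29 calls, and 265 with the replicate block. RLE, library size alone, no filter, 1 CPM in 3 libraries, limma and the 6 libraries without pairs gave 38 to 64. The 848 genes of the study's rule became 48 with Benjamini-Hochberg adjustment, 1332 with no filter, 537 with 1 CPM in 3 libraries and 1290 with the replicate block. No gene was called for the interaction by edgeR with all 12 libraries, with or without the replicate block, whereas DESeq2 called 23, and leaving out 1 library of AhRfl/fl cells gave 0 to 2. Fewer or more genes tested enter the counts under other filters, and for the remaining shifts the cause was not tested. Signs reversed for 10 genes, none called without pairs. Over the fits that leave out 1 library the log2 fold change of Atg5 was -0.11 to 0.038, Becn1 -0.094 to 0.026, Cybb -0.80 to 3.14, Cyp1a1 -0.14 to 0.35, Itgax -2.02 to 0.89, Laptm5 -2.25 to 1.47, Mmp8 -0.54 to 1.79, Pdpn -0.55 to 0.34, Srxn1 -0.021 to 0.45 and Tgfb1 -0.27 to 0.14. Srxn1 had -0.051 with the replicate block and without replicate 1 of both treatments. Of the 202 genes followed, 127 passed the threshold with the replicate block and not without it, 1, Car4, did the reverse, and 74 stayed on the same side. List members were followed if called with or without the block, so these counts come from the selection. Over all 20612 genes tested, 701 were called with the block and not without it, and 1 the reverse. Depth limits genes near the floor of 0.0373 to 0.0446 CPM, such as Tslp and Car4.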

Other observations

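Zbtb22 was at 35.7, 36.0 and 35.3 CPM with PBS and 31.3, 40.6 and 35.5 CPM with CRE in Sftpc-Cre;AhRfl/fl cells, close to the PBS level of AhRfl/fl cells in all 6 libraries.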
